A study of Mus musculus with 18 samples.

Results

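The DNA glycosylases that start base excision repair (BER) and the endonuclease that follows them were followed across mouse embryonic stem (ES) cells and their differentiated progeny before and after ionizing radiation (IR). The set held 10 genes, Ung, Smug1, Tdg, Mbd4, Ogg1, Mutyh, Neil1, Neil2, Neil3 and Apex1, of 19259 genes with a RefSeq symbol on the array. It was selected on the change of Ung from ED to EDRL, the largest fall in differentiated cells 4 h after IR, and that fall is therefore given below as a description without a test. All 10 genes had at least 1 probe, and Ung, Mutyh and Tdg had 2 each, which made 13 probes in all.

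RNA was profiled on 18 one-color Agilent arrays, 3 for each of 6 groups. ES cells were wild-type mouse cells derived from blastocysts, kept at early passage on gelatin without feeder cells and with leukemia inhibitory factor (LIF). The differentiated cells (ED) were isogenic and arose by undirected differentiation, without LIF, for 1 week or until Oct4, Sox2, Nanog and SSEA1 had gone. Both were left unirradiated (ES and ED) or given 10 Gy and collected after 15 min (radiation early, ESRE and EDRE) or 4 h (radiation late, ESRL and EDRL). Arrays were run in triplicate and nothing states that triplicates were separate cultures, so p-values measure the spread between these samples, which may be technical. All groups were wild type.

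BER removes single damaged or wrong bases. A glycosylase recognises the base and cuts it from the sugar, an endonuclease opens the strand at the empty site, and a polymerase and a ligase close the gap. The glycosylases divide the work by lesion. Ung and Smug1 remove uracil, Tdg and Mbd4 remove thymine or uracil that stands opposite guanine, and Tdg also takes out oxidised forms of methylated cytosine. Ogg1 removes oxidised guanine, Mutyh removes adenine that was placed opposite it, and Neil1, Neil2 and Neil3 remove oxidised pyrimidines. Apex1 cuts the strand at the site left by most of them. Radiation oxidises bases through reactive oxygen species, and BER is the main route for such damage.

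Levels are given as the log2 processed signal of a probe minus the 75th percentile of its array, so that 0 is the signal of a probe at that percentile. Levels of different probes are not on a shared scale. Outlier spots, as set by the feature extraction software, were left out of fits, while the values listed for single arrays include them. A change was called when the adjusted p of limma (Benjamini-Hochberg over all probes tested) was under 0.05 and the log2 change was over 1 in size. A gene was called when at least 1 probe was.

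Most markers followed the labels, as 8 of 9 tested stem cell markers were lower in ED than in ES and 8 of 9 tested mesenchymal markers were higher. The mesenchymal marker Thy1 went the other way, from a mean of 1.23 in ES to -8.71 in ED, where it was not well above background. The stem cell marker Klf4 stood at 3.84 in ES and 3.89 in ED, and Sox2 fell from 4.68 but stayed at 2.32 in ED. The summed linear level of the stem cell markers was 620 to 629 in ES and 17.7 to 23.3 in ED. The summed mesenchymal level was 61.0 to 73.8 in ES and 489 to 612 in ED, while of 5 endoderm markers tested 1 was higher and 4 were lower in ED, and of 5 neural markers 1 was higher and 1 lower. In bulk RNA, fewer cells of a type and less RNA per cell cannot be told apart. EDRE arrays 2 and 3 stood apart from the rest. Their 75th percentile signals were 875 and 1155, where all others lay between 1952 and 4268. Outliers made up 24.4% and 23.8% of their spots, and 3.33% to 11.1% elsewhere. Several results that rest on them, but not all, are also given without them. No scan time held a group together with its own control.

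The stretches upstream of Ung and Neil3 are shown because these genes differed in opposite directions between ED and ES. They come from RefSeq (GRCm38.p6), run to the RefSeq gene start and carry a GC box (GGGCGG on either strand) in capitals. The Ung stretch is chr5:114130185-114130365 on the plus strand and the Neil3 stretch is chr8:53639066-53639315 on the minus strand.
Ung: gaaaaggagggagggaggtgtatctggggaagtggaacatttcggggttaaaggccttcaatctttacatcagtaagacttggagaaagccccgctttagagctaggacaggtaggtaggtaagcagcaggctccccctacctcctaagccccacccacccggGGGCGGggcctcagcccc
Neil3: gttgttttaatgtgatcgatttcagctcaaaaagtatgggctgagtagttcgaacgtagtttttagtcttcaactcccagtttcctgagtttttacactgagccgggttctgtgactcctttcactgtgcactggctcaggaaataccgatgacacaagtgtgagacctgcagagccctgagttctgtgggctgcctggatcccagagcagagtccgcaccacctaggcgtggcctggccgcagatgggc
Over the 250 bases before the listed start, Ung held 2 GC boxes, of which 1 lies inside the annotated gene and is not printed, and Neil3 held none. Of all 32851 promoter windows of this length, 32.7% held a GC box. Among the 9 members with a window, Ogg1 and the upstream start of Mutyh also held 2 GC boxes, Mbd4 and Apex1 held 1, and Smug1, Tdg and Neil1 held none. CpG dinucleotides numbered 10 for Ung and 8 for Neil3, against a median of 6.0 over all windows and 28 for Apex1. No member window held an E2F motif (TTTCCCGC, TTTGGCGC, TTTCGCGC or TTTGCCGC on either strand), which 1.86% of all windows did, or TTTGAA, which 16.0% did. CCAAT on either strand was absent from Ung, Neil1 and Neil3, present once in Apex1, Smug1, Tdg and both Mutyh windows, and present 2 times in Mbd4 and Ogg1, against 33.8% of all windows. These are letter matches and not shown to be sites.

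Ung, the main uracil glycosylase, was high in stem cells and lower in differentiated cells. On probe NM_011677 the 3 ES arrays read 3.22, 3.20 and 3.02 and the 3 ED arrays read 0.67, 0.77 and 0.73. On probe NM_001040691 the ES arrays read 3.27, 3.32 and 3.14 and the ED arrays 0.34, 0.80 and 0.82. All ES arrays lay above all ED arrays on both probes, and no member spot was saturated on any array. Of these ES spots only that of array 3 on NM_011677 was not an outlier, so the fit for that probe rests on 1 ES array and none could be made for the other. The log2 change was -2.30 (SE 0.58, 95% interval -3.57 to -1.02, adjusted p = 0.00613 in limma), a 4.92-fold lower level in ED. With outlier spots kept it was -2.42 on NM_011677 and -2.59 on NM_001040691. The 2 probes followed each other closely over the 18 arrays (r = 0.984), a description of probes that share every array.

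**Figure D1:**
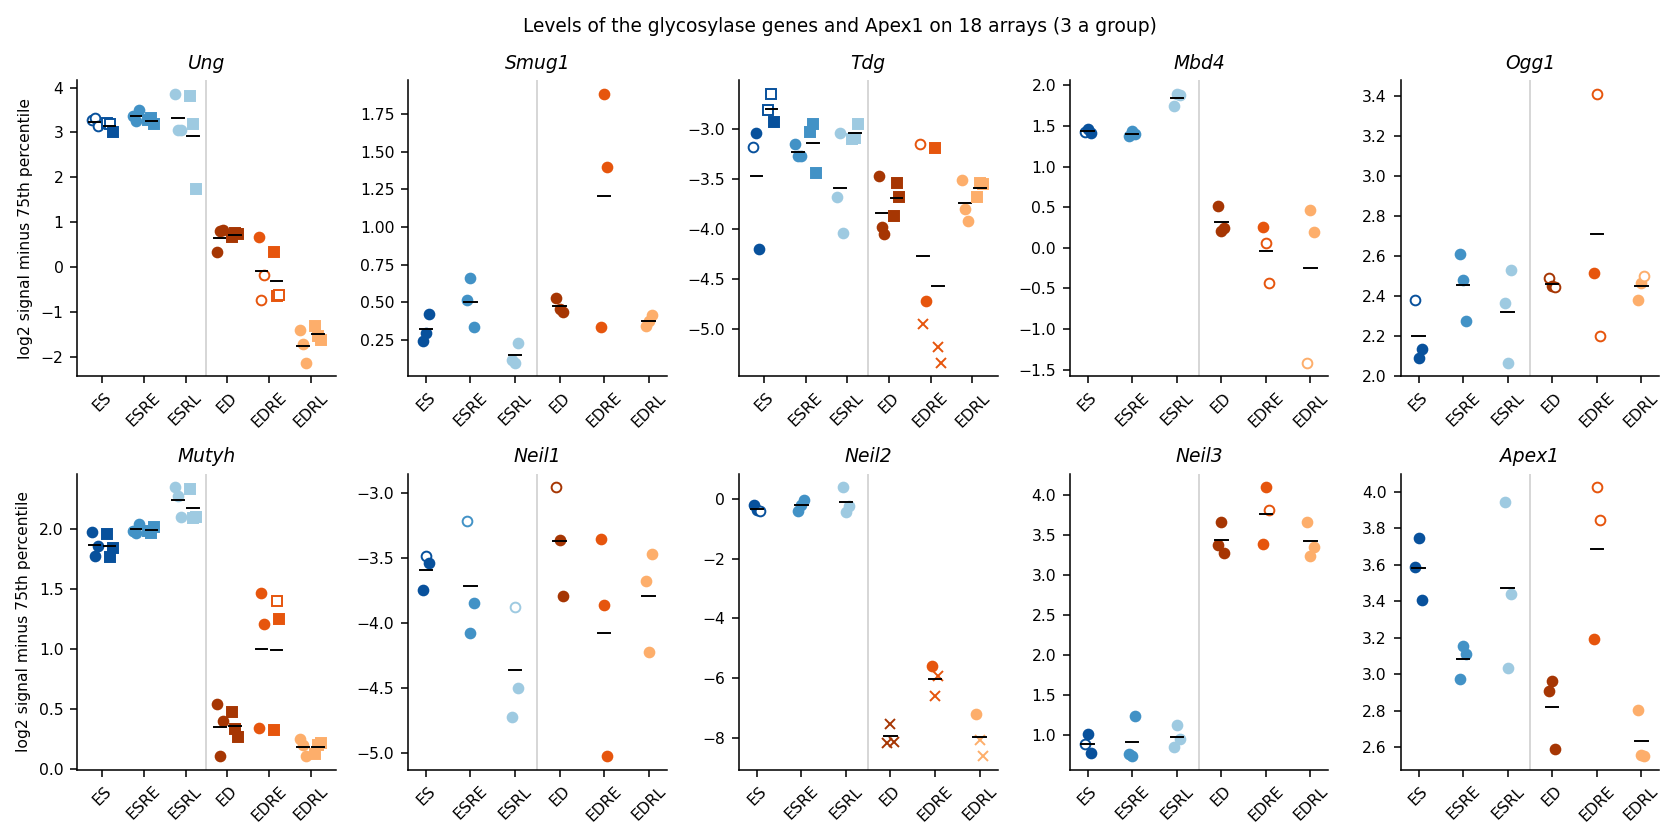
Levels of the 10 genes on each of 18 arrays by group, as log2 signal minus the 75th percentile of the array. Points are arrays, open points are outlier spots, crosses are spots not well above background, bars are means of all 3 arrays, and for Ung, Tdg and Mutyh circles and squares are the 2 probes (circles NM_001040691, NM_011561 and NM_001159581). Ung lies between 1.74 and 3.86 in stem cells, between 0.34 and 0.82 in ED and at or below -1.31 in EDRL, while Neil3 lies at or above 3.24 in all differentiated groups.

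The order of the Ung levels was the same in the lower groups on both probes. From high to low it was ESRE, ES, ESRL, ED, EDRE and EDRL on NM_011677 and ESRE, ESRL, ES, ED, EDRE and EDRL on NM_001040691. The 3 stem cell groups overlapped as neighbours on both probes. The lowest stem cell group lay above ED without overlap, and EDRE lay above EDRL without overlap on both probes. ED and EDRE overlapped on NM_001040691 but not on NM_011677. ESRL arrays 1, 2 and 3 read 3.81, 3.18 and 1.74 on NM_011677, the widest spread of the 6 groups on that probe, and 3.86, 3.06 and 3.06 on NM_001040691, where EDRE spread more. The low value of ESRL array 3 was thus seen on 1 of the 2 probes.

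Between unirradiated ED and ES cells, 5 of the 10 genes were called, against 41.7% of all 28636 probes tested. Neil3 was higher in ED, a direction called for 15.1% of all probes, and Ung, Mutyh, Neil2 and Mbd4 were lower, a direction called for 26.6%. Among these, Neil2 was tested only through ES, since it was not well above background on any ED array. The median change over the genes was -0.76, beside -0.19 over all probes. On at least 1 probe 9 of the 10 (all but Neil1) did not overlap between ED and ES, beside 72% of all probes. This comparison shares the ED arrays with the one on which the set was chosen.

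Neil3, which acts on oxidised pyrimidines and on lesions in single-stranded DNA, stood at 0.88, 1.01 and 0.77 on the ES arrays and at 3.37, 3.66 and 3.27 on the ED arrays. The groups were far apart relative to their spread. The log2 change was 2.54 (SE 0.25, adjusted p = 1.6e-06 in limma), or 5.82-fold. Neil3 was the only member called higher in ED at this scaling.

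Neil2, its relative that prefers lesions in open DNA such as transcription bubbles, went the other way. It read -0.22, -0.38 and -0.42 in ES and -8.17, -7.53 and -8.12 in ED, where it was not well above background on any of the 3 arrays. At this scaling, Neil2 in ES stood about 142-fold above the lowest signal well above background on the ED arrays. This gives a limit and not a measured size. The log2 change of Neil2 was -6.95 with the authors' deposited matrix and -5.08 with normexp background correction, so the size depends on processing. Neil2 entered the test only through ES, so that its call is no support beyond these values. Neil1, the third of these enzymes, was low in both, at -3.74 to -3.48 in ES and -3.79 to -2.96 in ED with outlier spots kept. Its groups overlapped and its log2 change was 0.07 with a 95% interval of -0.95 to 1.08.

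Mutyh, the adenine glycosylase, read 1.95, 1.77 and 1.84 in ES and 0.48, 0.33 and 0.27 in ED on NM_133250, with no overlap. Its log2 changes were -1.49 (SE 0.19, adjusted p = 1.6e-05) and -1.52 (SE 0.23, adjusted p = 4.4e-05 in limma) on the 2 probes, or 2.81-fold and 2.86-fold lower. The probes moved together over the arrays (r = 0.995). Ogg1, which acts on the other side of the same lesion, read 2.38, 2.09 and 2.13 in ES and 2.49, 2.45 and 2.44 in ED. The groups did not overlap, but its change of 0.34 had an interval of -0.29 to 0.96 and was not called, and it rests on 1 ED array and 2 ES arrays since the other spots were outliers.

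Mbd4, which binds methylated CpG and removes mismatched thymine, read 1.42, 1.47 and 1.41 in ES and 0.51, 0.21 and 0.25 in ED, without overlap. The log2 change was -1.12 (SE 0.17, adjusted p = 0.00019 in limma). Tdg was dim, with means of -2.80 in ES and -3.70 in ED on NM_172552 and of -3.47 and -3.84 on NM_011561 with outlier spots kept. Neither Tdg probe was called, with changes of -0.76 (interval -2.07 to 0.54, from 1 ES array) and -0.22 (interval -0.96 to 0.53). The Tdg probes followed each other less closely (r = 0.760).

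Smug1, the second uracil glycosylase, read 0.25, 0.30 and 0.42 in ES and 0.53, 0.46 and 0.44 in ED, which did not overlap but differed by 0.15 (interval -0.42 to 0.73), which was not called. Apex1, the endonuclease, read 3.59, 3.75 and 3.41 in ES and 2.91, 2.96 and 2.59 in ED. The groups did not overlap and the change of -0.76 (SE 0.22) passed the test (adjusted p = 0.0094 in limma) but not the limit on size. Of the pair that removes uracil, Ung was called lower in ED and Smug1 was not. The difference between their changes was not tested.

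**Figure D2:**
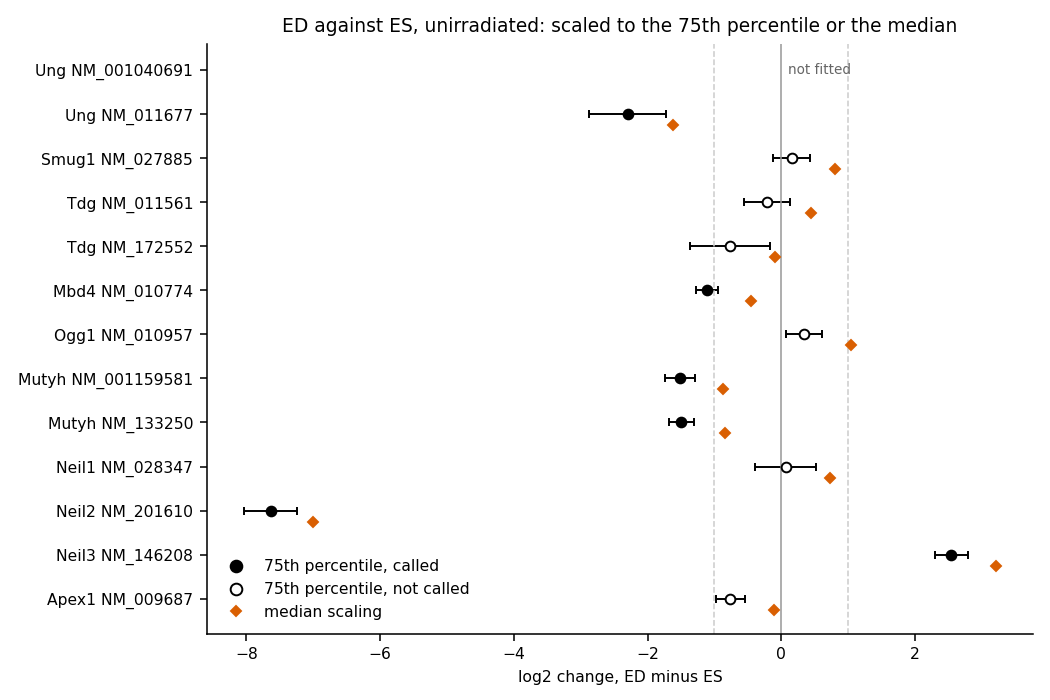
Log2 change from ES to ED for each probe, scaled to the 75th percentile (circles with standard errors, filled where called) and to the median of each array (diamonds). Dashed lines mark the limit of 1 on the log2 change, and Ung NM_001040691 had no usable ES spot. Median scaling moves every probe to the right, and Ung, Neil2 and Neil3 stay beyond the dashed lines.

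Several of these sizes depended on how arrays were scaled. Scaling every array by its median signal moved the median change of all probes from -0.19 to 0.46 and the share of calls that were higher in ED from 36.2% to 59.3%. Under median scaling, the log2 changes were -1.63 for Ung (from 1 ES array) and 3.21 for Neil3, both still called. Neil2 read -7.00, but it was not well above background in ED, so its call adds no support. Apex1 read -0.11 (adjusted p = 0.744 in limma) and Smug1 read 0.80 (adjusted p = 0.012 in limma), neither of them called. Mutyh (-0.84 and -0.87) fell under the size limit, Mbd4 read -0.45 (adjusted p = 0.069 in limma), Ogg1 read 1.04 and was called higher, and Tdg NM_011561 read 0.45, the opposite sign. With scan time as a random block Ung read -2.06 (adjusted p = 0.092). ESRE array 3 was scanned together with the ED arrays. With outlier spots kept, it exceeded the ED mean by 2.46 and 2.84 (Ung), 1.65 and 1.69 (Mutyh) and 1.07 (Mbd4). The difference was -2.20 for Neil3 and 7.90 for Neil2, which was not well above background on any ED array.

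In stem cells 15 min after IR, 0 of the 10 genes were called in limma, against 0.463% of all probes. The member changes had a median of 0.05, beside -0.08 for all probes. At an unadjusted p under 0.05 there was 1 gene, Apex1, beside 9.45% of all probes. The t-test named in the methods called 0 with and without adjustment, and 777 of all 27738 probes without it. Apex1, Mutyh and Tdg, 3 of the 10, did not overlap ES on at least 1 probe, beside 36% of all probes. Apex1 read 2.98, 3.16 and 3.11 in ESRE, all below the 3 ES arrays, a change of -0.50 (interval -0.97 to -0.03, adjusted p = 0.478). Ung read 3.29, 3.33 and 3.18 on NM_011677, a change of 0.24 (interval -1.03 to 1.52), and the groups overlapped.

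At 4 h in stem cells, 0 of the 10 genes were called in limma, against 7.03% of all probes. The same t-test called 0 with and without adjustment, and 1929 of all 27730 probes without it. The median change was -0.01, beside -0.16 for all probes. Mbd4 was the single gene with an unadjusted p under 0.05, beside 25% of all probes. On at least 1 probe 5 of the 10 (Mbd4, Mutyh, Neil1, Smug1 and Tdg) did not overlap ES, beside 33.4% of all probes. It read 1.75, 1.90 and 1.88, above every ES array, with a change of 0.40 (SE 0.17, adjusted p = 0.162). Mutyh lay above ES without overlap on both probes, with changes of 0.32 and 0.37 (adjusted p = 0.342 and 0.338), and Neil1 below it with a change of -0.96 (adjusted p = 0.225). None of these passed the test, nor did Smug1 (-0.17) or Tdg (-0.11 and 0.03). Ung differed from ES by -0.11 on NM_011677 (interval -1.39 to 1.17), and the groups overlapped. Both stem cell comparisons share the ES arrays.

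In differentiated cells 15 min after IR, 0 of 9 genes tested were called in limma, against 4.85% of all probes, while 3 genes (Smug1, Tdg and Mutyh) had an unadjusted p under 0.05, as did 26% of all probes. The t-test without adjustment called 1, Tdg, and 1118 of all 24368 probes it was run on. The median change was 0.07, beside 0.03 for all probes. Of the 9, 2 (Apex1 and Ung) did not overlap ED on at least 1 probe, beside 24% of all probes. The values parted by array. Smug1 read 0.34 on EDRE array 1 and 1.88 and 1.39 on arrays 2 and 3, around ED values of 0.44 to 0.53. Mutyh read 0.34 on array 1 and 1.46 and 1.20 on arrays 2 and 3 (NM_001159581). The first array thus lay within or near ED and the other two, which stood apart in quality, lay above it.

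The difference of EDRE from ED was 0.73 for Smug1 (adjusted p = 0.098), 0.43 and 0.65 for the Mutyh probes (adjusted p = 0.223 and 0.080) and -0.87 for Tdg NM_172552 (adjusted p = 0.212 in limma). For Tdg NM_011561 the interval of the change was -1.74 to -0.27 (adjusted p = 0.084 in limma), from EDRE arrays 2 and 3 alone. EDRE array 1, an outlier spot on this probe, read -3.15, above the highest ED array at -3.47. With that spot kept the change was -0.44 and the groups overlapped. Without EDRE arrays 2 and 3, Smug1 read -0.14, Mutyh -0.03 and -0.01, and Tdg NM_172552 0.51. Without EDRE array 1 instead, Smug1 and Tdg were both called, in opposite directions, beside 5694 of all 18063 probes tested in that fit. Tdg was not well above background on EDRE arrays 2 and 3 on NM_172552 and on array 2 on NM_011561. What sets these 2 arrays apart was not tested.

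Ung in EDRE read 0.33, -0.65 and -0.62 on NM_011677 and 0.66, -0.74 and -0.17 on NM_001040691, of which only array 1 gave spots that were not outliers. From that array the changes were -0.39 (interval -1.65 to 0.87) and 0.01 (interval -0.82 to 0.84), and with outlier spots kept they were -1.03 and -0.74. Apex1 read 3.19 on array 1 and 4.03 and 3.85 on arrays 2 and 3, where both spots were outliers, and all lay above ED. Its change was 0.37 from array 1 and 0.87 with outlier spots kept. Neil2 was not tested in ED cells. It was well above background on 1 of 3 EDRE arrays, at -5.60, and on no ED array, so no fold is given.

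**Figure D3:**
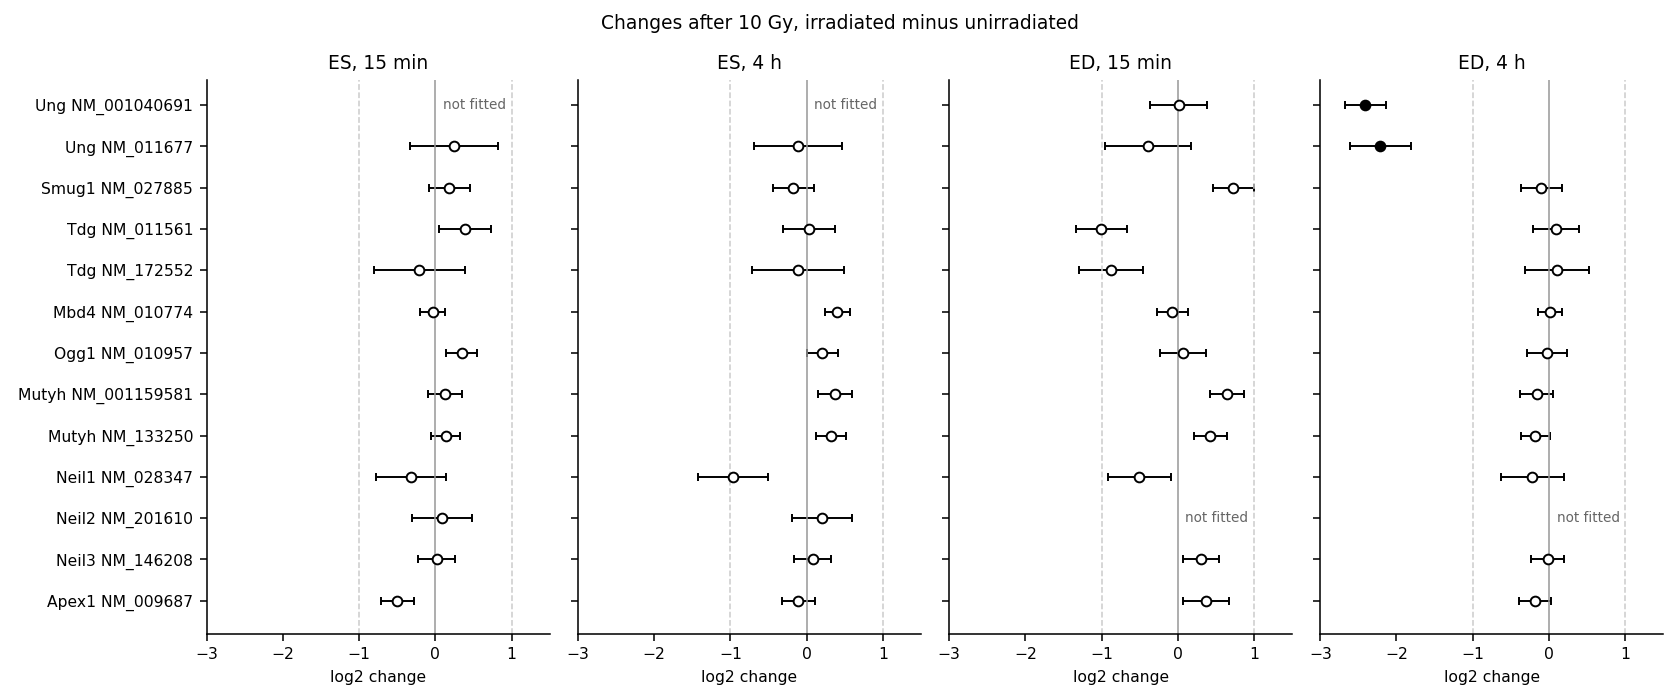
Log2 change of each probe after 10 Gy against unirradiated cells of the same type, with standard errors of the fit, in ES and ED cells at 15 min and 4 h. Filled circles were called and dashed lines mark a log2 change of 1. Only the 2 Ung probes in ED cells at 4 h, on which the set was chosen, lie beyond -2.

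At 4 h in differentiated cells, Ung was the single gene called of 9 tested, against 1.61% of all probes called and 0.236% called lower. This is the fall that chose the set, so nothing is read from the count. With Ung, Mutyh and Smug1 did not overlap ED on at least 1 probe, 3 of 9 beside 43.6% of all probes. NM_011677 read -1.31, -1.54 and -1.62 in EDRL and NM_001040691 read -1.41, -1.71 and -2.14, below every ED and EDRE array. In processed signal, the EDRL arrays gave 1176, 1105 and 1048 on NM_011677 against 6815, 6431 and 5744 in ED, all well above background. The log2 changes were -2.21 (SE 0.40) and -2.41 (SE 0.26), or 4.64-fold and 5.31-fold lower. Among 29 probes with a gene symbol that were called lower, above background on all 6 arrays and without overlap, the next after Ung were Wdr20rt at -2.40 and H2bc23 at -1.80.

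The other members lay close to ED at 4 h. Their changes ran from -0.22 for Neil1 to 0.11 for Tdg NM_172552, with Neil3 at -0.02, Mbd4 at 0.01 (-0.57 with an outlier spot of -1.42 kept), Ogg1 at -0.02, Smug1 at -0.10 and Apex1 at -0.18. The median over the genes was -0.10, beside -0.09 for all probes. Neil2 read -7.20, -8.07 and -8.61, was well above background on 1 of the 3 arrays and gave no fold. EDRE array 1 was scanned together with the EDRL arrays and exceeded their mean for Ung by 1.82 on NM_011677 and 2.42 on NM_001040691, for Apex1 by 0.56 and for Neil3 by -0.03. With scan time as a random block the Ung changes were -2.46 and -2.44, and neither was called.

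The responses of both cell types were also compared directly. For the difference at 15 min, 0 of 10 genes were called in limma, against 1.98% of all probes, and 3 (Tdg, Apex1 and Neil2) had an unadjusted p under 0.05, as did 18.7% of all probes. Neil2 differed by 1.81 (SE 0.53, adjusted p = 0.096 in limma), with EDRE arrays 2 and 3 in the fit. This value also rests on ED arrays where Neil2 was not above background. Tdg NM_011561 differed by -1.39 (SE 0.49, adjusted p = 0.153 in limma), with only EDRE arrays 2 and 3 in the fit for EDRE. For the difference at 4 h, 0 of 10 were called, against 1.07% of all probes, and nothing is read from that count, since this comparison holds the fall that chose the set. Ung NM_011677 differed from its control by -0.11 in ES and by -2.21 in ED cells, a difference of -2.10 (SE 0.71) from 1 usable ES array. NM_001040691 had no usable ES spot.

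The other genes of BER were taken as a list of 25 that act beside or after the members. Between ED and ES, 6 of 20 tested were called, beside 41.7% of all probes. Parp3 (2.57) and Pold4 (2.08) were higher, and Parp1 (-2.15), the sensor of single-strand breaks, was lower with Nthl1, Lig3 and Poll. The list's median was -0.61, beside -0.19 for all probes. After IR, 0 of 19 were called in ESRE, 0 of 20 in ESRL and 0 of 24 in EDRL. In EDRE 1 of 21 was called, the glycosylase Mpg at -2.18 (adjusted p = 0.049 in limma), with 1 ED array and EDRE arrays 2 and 3 in the fit since its other spots were outliers. Mpg read -0.90, -1.23 and -1.33 on the ED arrays and -1.03, -3.01 and -4.01 on the EDRE arrays, so that only EDRE arrays 2 and 3 lay below ED, and without them 0 of 20 genes of the list were called. The interaction called 0 of 18 at 15 min and 0 of 20 at 4 h.

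Related lists were smaller. Of the enzymes that keep uracil and oxidised bases out of the nucleotide pool, 1 of 6 was called between ED and ES, Dut, which breaks down dUTP and was higher (1.17 and 1.32 on its probes), and 0 in any other comparison. Of the cytidine deaminases, which turn cytosine into uracil, Apobec3 was lower in ED (-1.92 and -1.81 on its probes) and Apobec1 was higher in EDRL (1.22 on both probes). Of the genes of active demethylation, Tet2 was lower in ED (-1.66), 1 of 2 tested, and 0 were called elsewhere. Beside these counts, 41.7% of all probes were called between ED and ES.

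S phase genes were set beside Ung since its expression is known to peak around S phase. At 4 h in ED cells 0 of 11 were called, with a median of -0.14, beside -0.09 for all probes, while their summed level was 171 to 179 in ED and 157 to 166 in EDRL. Between ED and ES, Ccne2 was higher (1.93), and Ccne1 (-3.27) and Mcm2 (-1.08) were lower, 3 of 9, beside 41.7% of all probes. In EDRE 3 of 11 were higher, beside 2.1% of all probes, and the summed level of the S phase genes ranged from 184 to 434. Without EDRE arrays 2 and 3, 0 of 11 S phase genes and 0 of 8 p53 targets were called in EDRE. Of the p53 targets, 4 of 7 were higher in EDRL, with Trp53inp1 at 2.22, Btg2 at 2.18 and Ccng1 at 1.61, beside 1.38% of all probes. In ESRL 1 of 7 was higher (Trp53inp1 at 1.15), beside 0.69% of all probes, and in EDRE 2 of 8 (Btg2 and Trp53inp1). Between ED and ES 3 of 8 were lower in ED, beside 26.6% of all probes. No other irradiated comparison called a gene of either list, and what these lists share with Ung was not tested.

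The probes whose levels over the 18 arrays were most like Ung NM_001040691, of 19744 candidates, were those of Zmynd19 (Pearson r = 0.984), Suv39h2 (0.974), Zfp521 (0.970), Evx1 (0.967) and Grwd1 (0.967). These points share arrays and fall into cell type clusters, so the values describe likeness and carry no test. From ES to ED and from ED to EDRL the mean of Zmynd19 went from 2.44 to 1.53 and to 0.62, and that of Suv39h2 from -0.65 to -1.99 and to -2.60. Evx1 was not well above background on any EDRL array. For Apex1 they were Atp6v0d1 (0.936), Dxo (0.935) and Adsl (0.929). Atp6v0d1 stood at 0.98 in ED, 2.28 in EDRE and 0.98 in EDRL, with the rise in EDRE that Apex1 showed with outlier spots kept. These EDRE means include arrays 2 and 3.

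**Figure D4:**
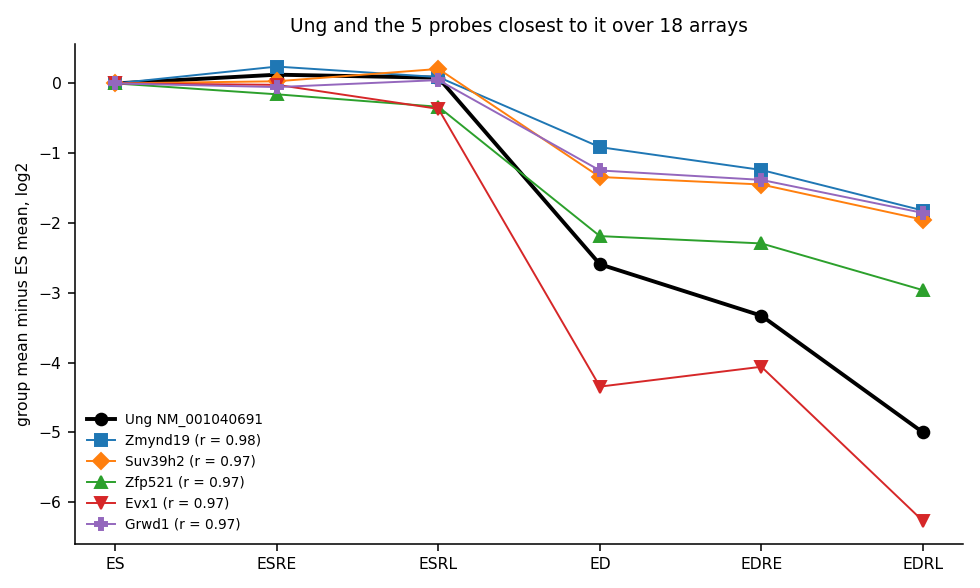
Group means over 3 arrays, as log2 differences from the ES mean of the same probe, for Ung NM_001040691 and the 5 probes most like it. All 6 lines lie near 0 in the stem cell groups and lower in the differentiated groups, with the lowest point of each in EDRL, where Zmynd19 has a mean level of 0.62.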

How the data were processed

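RNA of 18 samples in 6 groups of 3 was measured on one-color Agilent mouse arrays, 1 array per sample. The authors deposited scanner output with spot intensity values, made with Agilent Feature Extraction (9.1 in the processing notes, 10.7.3.1 per the file headers), and a matrix of log2 values, which the deposited scanner signals show to be log2 signal, raised to at least 5, minus about the median of each array. The precision is limited by 3 arrays a group.

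The background-subtracted intensity was taken as log2 minus the 75th percentile of each array. Control spots (1417) and 200 unmarked negative controls were left out of 39448 spots, outlier spots were set missing, and spots of 1 probe were averaged, which left 37246 probes. RefSeq accessions named 22216 probes and 19259 genes. A probe was tested where 1 of the groups compared or more had it well above background in all 3 arrays, using limma 3.58.1 in R 4.3.3 and a fit of all 6 groups, with two-sided tests and Benjamini-Hochberg adjustment over all probes tested. On simulated data for EDRL against ED (25412 probes), 86.2% of changes of 2 and 94.7% of changes of 3 on the log2 scale were recovered.

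In all, 12 other settings changed background correction (normexp with offset 50, run on the median signal because a mean signal was not used here), scaling, filters, blocks, samples fitted, input matrix and test. Leaving out each of 18 arrays in turn, and EDRE arrays 2 and 3 together (chosen after seeing the data), were also run. The members, lists and tests were chosen with earlier results of these data known. The text names all 10 members, at most the 3 largest called changes of each other list in a comparison, the genes most like Ung and Apex1, and the largest falls in EDRL. Promoters of 9 of the 10 members were found in the RefSeq table (GRCm38.p6). No sample was left out. Counts over the cytidine deaminase list are not reported here.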

Additional observations from a re-analysis of the deposited data

Results flagged for a closer look

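Some probes lay to one side on every irradiated array of one cell type and to the opposite side on every irradiated array of the other, against the mean of the unirradiated arrays and with outlier spots kept. At 15 min, Ung NM_011677 differed from control by 0.12 in ES and -1.03 in ED cells, a difference of -1.16, while the fit without outlier spots gave an adjusted p of 0.720 in limma. Apex1 differed from control by -0.50 in ES and 0.87 in ED cells at 15 min, a difference of 1.37, and the fit without outlier spots gave an adjusted p of 0.234. Both rest on EDRE arrays 2 and 3, where these spots were outliers. At 4 h, Tdg NM_172552 differed from control by -0.25 and 0.11, a difference of 0.35. Mutyh differed from control by 0.32 and -0.18 on NM_133250, a difference of -0.50, and by 0.37 and -0.16 on NM_001159581, a difference of -0.53. At 4 h these differences belong to the contrast on which the set was chosen, so no test of them is given.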

How the results depend on the processing

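No call on a member changed its direction under any alternative run. In ED against ES the number of genes called was 5 and became 3 with the deposited matrix (Neil2, Neil3 and Ung) and 4 with median scaling (Neil2, Neil3, Ogg1 and Ung) or the scan-time block (all but Ung). In EDRE against ED it went from 0 to 1 without the filter on dim probes (Neil2), with the deposited matrix (Apex1) and with the unadjusted t-test (Tdg). In EDRL against ED it went from 1 to 0 with scan time as a random block (correlation 0.642). For the 4 h difference it went from 0 to 1 with outlier spots kept and with the deposited matrix (both Ung). Nothing is read from the last 2, which hold the values that chose the set. The causes were not tested.

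Leaving out 1 array gave 4 to 5 genes in ED against ES (without ES array 3 Ung had no usable ES spot), 0 to 0 in ESRE and in ESRL against ES, 0 to 2 in EDRE against ED (2 without EDRE array 1, Smug1 and Tdg), 1 to 1 in EDRL against ED, 0 to 2 for the 15 min difference (2 without EDRE array 1, Neil2 and Tdg) and 0 to 1 for the 4 h difference (1 without ESRL array 3, Ung). Without EDRE array 1, 5694 of all 18063 probes tested were called in EDRE and 6454 of 22152 for the 15 min difference. Leaving out EDRE arrays 2 and 3 together changed none of the 7 counts of members. Over all probes it took the calls from 1187 to 204 in EDRE and from 129 to 339 in ESRE.

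No strong shared deviation was seen in arrays of the same replicate number, as their correlations ran from -0.34 to 0.22. These correlations are of deviations from group means and cannot show whether samples were paired. The replicate block gave 5, 0, 0, 0, 1, 0 and 0 genes in the 7 comparisons, the same counts as without it.

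Counts over all probes moved more. With the scan-time block they fell from 129 to 0 in ESRE, 1965 to 51 in ESRL, 1187 to 2 in EDRE, 410 to 92 in EDRL, 555 to 0 for the 15 min and 304 to 1 for the 4 h difference. With normexp they were 76, 79, 2854, 153, 53 and 18, and with only the groups compared fitted 540, 411, 0, 868, 643 and 793. The Benjamini-Hochberg t-test gave 188 calls in ESRE, 14 calls in ESRL and 1 call in EDRE. Without the filter EDRE had 2469 and ESRE 88, with median scaling 1963 in EDRE, with the deposited matrix 2225 in EDRE and 170 at 4 h, and with quantile normalization 972 in ESRL. Leaving out 1 array gave 26 to 315 in ESRE, 834 to 4129 in ESRL, 250 to 5694 in EDRE, 137 to 6454 at 15 min and 132 to 1397 at 4 h. Median scaling moved the share of calls that were higher from 9.82% to 36.7% in ESRL and from 43.4% to 72.8% in EDRE, where normexp gave 95.4%.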
